A study of Mus musculus with 33 samples.

Results

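Prss16, Ctsl, Ctss, Ctsb, Ctsd and Ctsh encode proteases that work in endosomes and lysosomes, and they were followed through every library of a study of sorted mouse thymic epithelial cells. They were chosen by name, as the lysosomal and thymus-specific proteases of the deposited table, and are 6 of its 15273 genes. All 6 were measured and passed the filter on low values in every comparison below. Bulk MARS-seq, a 3′-end RNA-seq in which each captured molecule is counted once by its unique molecular identifier (UMI), had been run on 33 libraries of sorted cells from C57BL/6 mice. Wild-type thymic epithelial cells (TEC) gave 2 libraries at embryonic day 15 (E15), 2 at embryonic day 17 (E17), 2 each for the titles mTEC1, mTEC2 and mTEC4 at postnatal day 6, and 4 each for the titles cTEC, mTEC1, mTEC2, mTEC3 and mTEC4 at 6 weeks. The other 3 libraries are labelled HFC and are titled as GFP positive. This population was taken with trypsin from the dorsal skin of Foxn1.EGFP positive mice at 4 weeks. The thymi, by contrast, had been dissociated with Liberase TH and DNase. Nothing in the labels ties replicate libraries to different animals, and p-values therefore reflect only library-to-library spread, which may be technical.

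Lysosomal proteases cut proteins taken up by a cell into peptides, and they degrade the invariant chain that blocks the groove of MHC class II molecules until peptide can be loaded. In the mouse thymus, cortical TEC (cTEC) use cathepsin L (Ctsl) for the last steps of invariant chain removal, whereas dendritic cells, B cells and macrophages use cathepsin S (Ctss). Cortical TEC also make the thymus-specific serine protease Prss16, which shapes the peptides that select CD4+ T cells. Cathepsins B (Ctsb) and H (Ctsh) are cysteine proteases that also trim peptide ends, and cathepsin D (Ctsd) is the major aspartic protease of the lysosome.

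At 6 weeks the libraries were grouped by what they expressed and not by their titles, because the titles went against defining markers. None of the libraries titled cTEC passed the threshold for Psmb11, the catalytic subunit of the thymoproteasome of cortical TEC. Each of the 20 libraries passed exactly 1 of 5 thresholds, set in CPM (UMIs per 1000000 of the library), and each marker was passed by 4 libraries. Psmb11 (threshold 100 CPM) stood at 115 to 238 CPM in the marked libraries and reached 11.7 CPM in the others. Krt5, a basal keratin (threshold 2500 CPM), stood at 3468 to 3883 CPM against a highest value of 1537 CPM elsewhere. Aire, the regulator of tissue-restricted antigens in medullary TEC (threshold 1000 CPM), was at 1998 to 2486 CPM against at most 216 CPM. Pth, parathyroid hormone (threshold 1000 CPM), was at 3891 to 13890 CPM against at most 23.0 CPM. Trpm5, a cation channel of tuft cells (threshold 1000 CPM), was at 1689 to 2026 CPM against at most 90.2 CPM. These groups are not the study's own and the markers get no test. None of the 6 proteases was used to form them, although Psmb11 is itself a proteolytic subunit. All 4 Psmb11-marked libraries carry the number 196 in their titles and all 4 Krt5-marked ones the number 189, while 3 of 4 Aire-marked ones carry 191 and 3 of 4 Trpm5-marked ones carry 195. Number 196 otherwise holds 1 Trpm5-marked library and number 189 1 Aire-marked one, so marker and number are largely confounded. The numbers come from the same titles that go against the markers, and what they stand for is not known here. Library totals ran from 98670 to 1732688 UMIs, and the Pth-marked libraries were the shallowest, at 98670 to 175014 UMIs.

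Promoter sequences from RefSeq (build GRCm38.p6) were found for 3 of the 6 genes, Ctsl, Ctss and Ctsd, and all 3 are printed. Each window runs 5′ to 3′ on the gene's strand, from 250 bases before RefSeq's start of the gene to 50 bases after it. That start lies inside the GENCODE span given further on for Ctsl and Ctsd, and at its first base for Ctss. The windows lie at chr13:64370471-64370770 on the minus strand for Ctsl, at chr3:95526536-95526835 on the plus strand for Ctss and at chr7:142387778-142388077 on the minus strand for Ctsd. Capitals mark the E-box CACGTG in Ctsl and Ctsd and the interferon regulatory factor element, GAAA then any 2 bases then GAAA, in Ctss.
Ctsl: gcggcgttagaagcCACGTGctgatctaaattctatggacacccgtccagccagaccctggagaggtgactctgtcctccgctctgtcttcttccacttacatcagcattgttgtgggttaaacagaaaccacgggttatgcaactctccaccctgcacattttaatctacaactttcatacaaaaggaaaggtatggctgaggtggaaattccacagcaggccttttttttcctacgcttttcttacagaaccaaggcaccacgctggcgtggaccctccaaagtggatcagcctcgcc
Ctss: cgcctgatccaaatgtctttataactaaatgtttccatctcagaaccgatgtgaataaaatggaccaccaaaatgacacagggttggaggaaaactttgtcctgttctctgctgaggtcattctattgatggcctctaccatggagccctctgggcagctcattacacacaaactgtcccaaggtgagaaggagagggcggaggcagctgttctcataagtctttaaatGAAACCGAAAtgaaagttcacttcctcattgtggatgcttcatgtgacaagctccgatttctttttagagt
Ctsd: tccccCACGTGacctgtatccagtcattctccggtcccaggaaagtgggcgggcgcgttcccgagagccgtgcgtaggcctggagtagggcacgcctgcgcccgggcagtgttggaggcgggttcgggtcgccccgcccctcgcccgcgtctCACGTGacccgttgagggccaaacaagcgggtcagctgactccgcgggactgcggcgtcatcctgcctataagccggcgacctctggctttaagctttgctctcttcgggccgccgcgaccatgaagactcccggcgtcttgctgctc
Both strands were searched for these letters and for GACGC, a core sequence bound by mouse Foxn1. The E-box, the core of the element that lysosomal regulators of the TFEB family bind, lay at -236 to -231 from the start in Ctsl, and at -245 to -240 and -98 to -93 in Ctsd. It is held by 7.15% of 32851 windows of the same length. The interferon regulatory factor element lay at -21 to -12 in Ctss and is held by 3.44% of the windows. GACGC occurred 3 times on the opposite strand of Ctsd, at -104 to -100, -44 to -40 and 36 to 40, without overlapping an E-box, and is held by 27.2% of the windows. No other match of these letters lay in the 3 windows. A match describes the sequence and is not a measured binding site.

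Grouping by marker gathered libraries with like protease levels. On the log2 scale, differences between the marker groups held 84.9% of the variance of Prss16 over the 20 libraries, 74.6% for Ctsl, 86.9% for Ctss, 87.9% for Ctsh, 80.4% for Ctsd and 47.1% for Ctsb. Differences between titled populations held 5.90%, 7.17%, 6.49%, 4.91%, 8.31% and 26.6% in the same order of genes. When the libraries titled cTEC were set against those titled mTEC, limma called 0 of the 6 proteases at an adjusted p (Benjamini-Hochberg) below 0.05 and 0% of all 13610 genes tested. Of those genes 153 had an unadjusted p below 0.05, and edgeR and DESeq2 also called 0 of the 6 proteases. Prss16, for example, was at 35.7 to 203 CPM in the 4 libraries titled cTEC and at 20.3 to 6477 CPM in the 4 titled mTEC1.

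Prss16 had a cortical pattern. The Psmb11-marked libraries held 6477, 7642, 3453 and 7678 CPM of Prss16, a mean of 6313 ± 1987 CPM (SD, n = 4). No other 6-week library exceeded 469 CPM, so the groups did not overlap. Against the mean of the other 4 marker groups Prss16 was higher by 5.87 log2 units (SE 0.53, adjusted p = 4.2e-09, limma). Among the remaining groups the Krt5-marked libraries held 143 to 268 CPM, the Trpm5-marked ones 46.6 to 469 CPM, the Aire-marked ones 47.4 to 125 CPM and the Pth-marked ones 17.1 to 405 CPM. These 4 ranges overlapped, except that the Aire-marked libraries all lay below the Krt5-marked ones. Prss16 fell in the Pth-marked libraries against the mean of the other groups (log2 difference -2.77, SE 0.53, adjusted p = 0.00047, limma), and the difference was -3.77 without the library titled mTEC4, which alone held 405 CPM where the other 3 held at most 35.7 CPM. In that group Prss16 was counted at 2 to 60 UMIs per library, and DESeq2 gave an adjusted p of 0.058. It also fell in the Aire-marked libraries (log2 difference -1.82, SE 0.53, adjusted p = 0.012, limma), a call that was lost without the library titled mTEC4 or the one titled mTEC1 (adjusted p up to 0.073). Both differences are against a mean that includes the Psmb11-marked group.

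**Figure D1:**
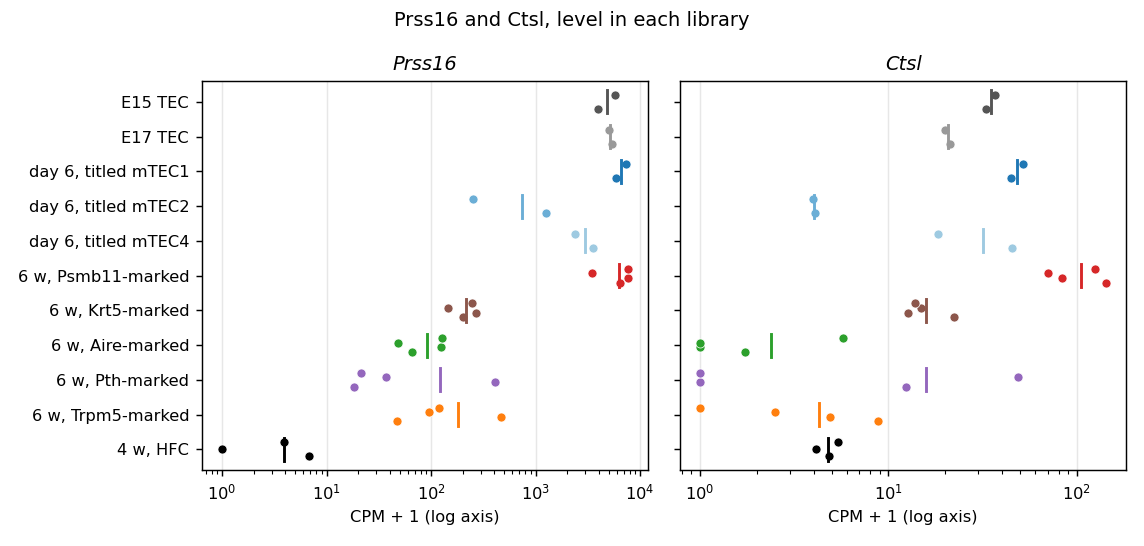
Prss16 (left) and Ctsl (right) in each library, as CPM + 1 on a log axis, by group. Points are libraries and vertical lines are group means, and the Psmb11-marked libraries sit at 3453 to 7678 CPM of Prss16 and 68.9 to 142 CPM of Ctsl.

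Ctsl was also highest in the Psmb11-marked libraries. They held 142, 82.4, 68.9 and 124 CPM, a mean of 104 ± 34.5 CPM (SD, n = 4), and all 4 lay above each of the other 29 libraries, of which the highest was a day 6 library titled mTEC1 at 50.9 CPM. Against the other marker groups Ctsl was higher by 4.11 log2 units (SE 0.65, adjusted p = 2.5e-05, limma). The Krt5-marked libraries followed at 21.2, 11.8, 13.8 and 12.8 CPM, without a call (adjusted p = 0.46, limma). The Aire-marked libraries were near the floor, at 0.73, 0, 0 and 4.77 CPM, which is 0 to 4 UMIs, and Ctsl was called lower there (log2 difference -2.47, SE 0.65, adjusted p = 0.0057, limma). Pth-marked libraries held 11.4, 0, 47.6 and 0 CPM and Trpm5-marked ones 7.77, 3.91, 1.49 and 0 CPM, so these 2 groups overlapped each other and the Aire-marked one. Ctsl rested on at most 83 UMIs in any library. A library with no UMI could still hold up to 3 UMIs, which is 30.4 CPM in the shallowest one.

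Ctss ran the other way. The Aire-marked libraries held 429, 305, 303 and 358 CPM of Ctss, a mean of 349 ± 59.3 CPM (SD, n = 4). All 4 lay above every other library of the series, the next being a Pth-marked one at 243 CPM. The Psmb11-marked libraries held 10.3, 25.8, 0 and 7.11 CPM and lay below every other 6-week library. In the test against the other marker groups Ctss was higher in the Aire-marked libraries by 2.59 log2 units (SE 0.39, adjusted p = 1.2e-05, limma). The Psmb11-marked libraries differed by -4.11 log2 units (SE 0.39, adjusted p = 9.0e-09, limma). Between these extremes stood the Pth-marked libraries at 200, 169, 95.2 and 243 CPM, the Krt5-marked ones at 139, 110, 122 and 111 CPM, and the Trpm5-marked ones at 57.0, 86.0, 67.0 and 45.1 CPM. The Trpm5-marked range lay below the other 2, which overlapped. Ctss was called higher in the Pth-marked group (log2 difference 1.29, SE 0.39, adjusted p = 0.016, limma), and the call was lost without the library titled mTEC1 (adjusted p = 0.060).

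Ctsh, an aminopeptidase among the cathepsins, had the same high and low groups. It was at 396, 346, 390 and 443 CPM in the Aire-marked libraries and at 257, 303, 256 and 355 CPM in the Pth-marked ones, so these groups overlapped at the Pth-marked library titled mTEC1. Krt5-marked libraries spread from 41.8 to 212 CPM and Trpm5-marked ones from 74.3 to 115 CPM. The Psmb11-marked libraries held 12.0, 18.5, 0 and 3.55 CPM, below every other 6-week library. Ctsh rose in the Aire-marked group (log2 difference 2.50, SE 0.41, adjusted p = 3.6e-05, limma) and in the Pth-marked group (1.96, SE 0.41, adjusted p = 0.0011). In the Psmb11-marked group it fell by 4.73 log2 units (SE 0.41, adjusted p = 2.0e-09, limma).

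**Figure D2:**
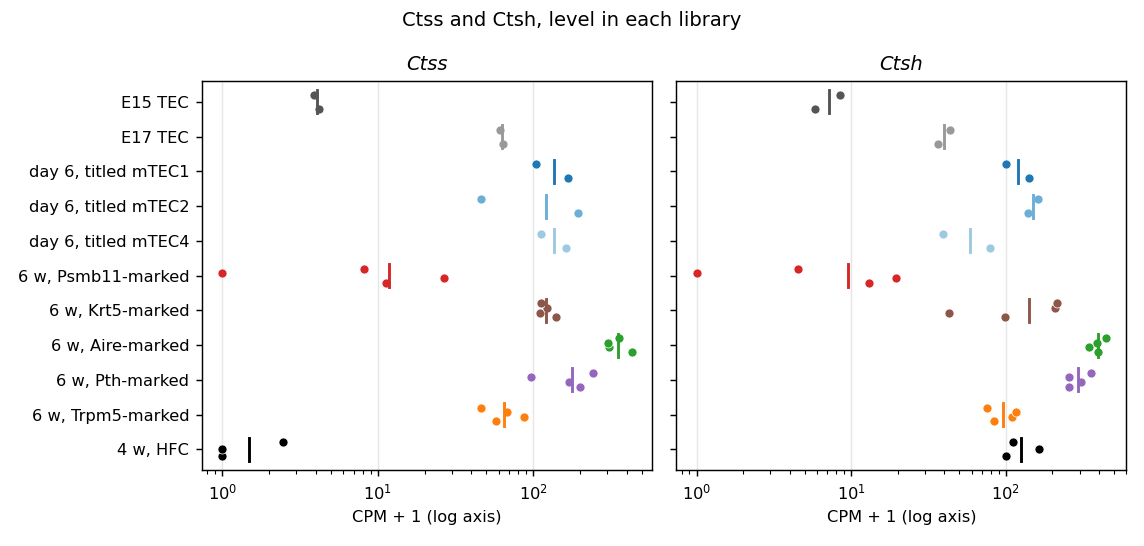
Ctss (left) and Ctsh (right) in each library, as CPM + 1 on a log axis, by group. Points are libraries and vertical lines are group means, and the Aire-marked libraries are highest (303 to 429 CPM of Ctss, 346 to 443 CPM of Ctsh) and the Psmb11-marked ones lowest among the 6-week groups.

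Macrophages and other myeloid cells express Ctss strongly, so their markers are given beside it. Over 14 myeloid genes the summed level was 1464 to 1894 CPM in the Aire-marked libraries, 788 to 1723 CPM in the Pth-marked ones, 119 to 714 CPM in the Krt5-marked ones, 171 to 362 CPM in the Trpm5-marked ones and 64.3 to 185 CPM in the Psmb11-marked ones. Of the 14 genes 9 were higher in the Aire-marked group and 5 were lower in the Psmb11-marked group (limma). Over all 13610 genes tested, 25.0% were called in the Aire-marked group (2379 higher, 1029 lower). In the Psmb11-marked group 29.9% were called (1645 higher, 2419 lower). Lysozyme Lyz2 alone made up most of the sum in the Aire-marked libraries, at 995 to 1428 CPM. There the macrophage genes Csf1r, C1qa and Adgre1 were at 18.0 to 64.4, 42.6 to 94.9 and 9.54 to 20.8 CPM. None of the 14 was at 0 in all Aire-marked libraries, whereas Adgre1 was at 0 in every Krt5-marked one. Csf1r was at 0 to 14.6 CPM in the Krt5-marked libraries and at 0 to 2.66 CPM in the Trpm5-marked ones, where the 14 genes together stood at 171 to 362 CPM. Dendritic and B cell genes were also called higher in the Aire-marked group, 5 of 8 (1 lower) and 4 of 5, against 25.0% of all genes called. The 8 dendritic genes summed to 548 to 953 CPM there and to 592 to 753 CPM in the Psmb11-marked libraries, and the 5 B cell genes to 83.6 to 154 CPM and 0 to 10.3 CPM. The Aire-marked libraries also had the most genes detected, 13947 to 14854 per library. Whether these transcripts came from such other cells or from the TEC themselves was not tested, nor was the part of either in the Ctss and Ctsh levels. In such bulk samples, fewer cells of a type and less RNA per cell cannot be told apart.

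Set against each other within a library, Ctsl and Ctss UMIs made 3 kinds of profile. Ctsl was 93.3%, 76.2%, 100% and 94.6% of the UMIs of both genes in the Psmb11-marked libraries. It was 13.2%, 9.68%, 10.2% and 10.3% in the Krt5-marked libraries, and 0.17%, 0%, 0% and 1.32% in the Aire-marked ones. The 3 groups did not overlap. For a single library the 95% Wilson interval, which covers counting error only, ran from 67.2% to 83.3% at the lowest Psmb11-marked share and from 0.51% to 3.33% at the highest Aire-marked share. Pth-marked libraries ranged from 0% to 33.3% and Trpm5-marked ones from 0% to 12.0%, on 17 to 46 UMIs of both genes together. Both ranges overlapped those of the Aire-marked and Krt5-marked libraries.

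**Figure D3:**
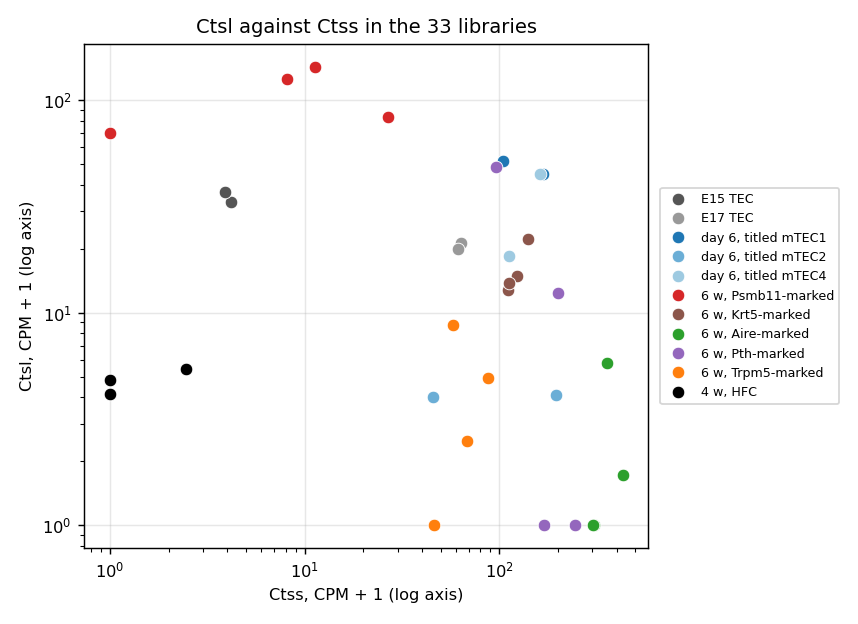
Ctsl against Ctss in the 33 libraries, both as CPM + 1 on log axes, coloured by group. The Psmb11-marked and E15 libraries lie at the upper left, with more UMIs of Ctsl than of Ctss (a ratio within 3′ counts, set between libraries and not a comparison of transcript levels between the genes), and the Aire-marked libraries at the lower right, with 303 to 429 CPM of Ctss and at most 4.77 CPM of Ctsl.

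Ctsd was present in every 6-week library, at 183 to 831 CPM. The Pth-marked libraries held 686, 735, 815 and 831 CPM, a mean of 767 ± 68.4 CPM (SD, n = 4), above every other 6-week library. Krt5-marked libraries followed at 210 to 455 CPM, then Psmb11-marked ones at 271 to 395, Trpm5-marked ones at 231 to 303 and Aire-marked ones at 183 to 312 CPM, all with overlapping ranges. Ctsd was higher in the Pth-marked group by 1.38 log2 units (SE 0.18, adjusted p = 6.5e-06, limma). Some markers of other cells were called higher in that group too, where 29.7% of all genes were called (1193 higher, 2848 lower). They were 8 of 10 mesenchyme genes (975 to 4459 CPM summed), 4 of 8 endothelial (143 to 1095 CPM) and 3 of 12 thymocyte genes (169 to 601 CPM). In the Psmb11-marked libraries the same lists summed to 1208 to 1876, 74.2 to 508 and 202 to 721 CPM, ranges that overlap those of the Pth-marked group. The part of such cells in any difference of either group was not tested. Ctsd was called lower in the Aire-marked group (log2 difference -0.55, SE 0.18, adjusted p = 0.024, limma). It was not called there with median of ratios scaling (-0.38, adjusted p = 0.14), edgeR (adjusted p = 0.10) or DESeq2 (adjusted p = 0.077). That call was also lost without the library titled mTEC4 or the one titled mTEC1 (adjusted p up to 0.19).

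Ctsb was counted at 0 to 18 UMIs per library in all 33 libraries, too few for a firm statement on its level. At 6 weeks it ranged from 0 CPM to 30.8 CPM. Psmb11-marked libraries held 30.8, 8.24, 9.18 and 10.7 CPM, without a call by limma (log2 difference 1.39, SE 0.55, adjusted p = 0.059), though edgeR (adjusted p = 0.035) and DESeq2 (adjusted p = 0.030) called it higher. The Pth-marked libraries held 1 UMI in all, and Ctsb was called lower there (log2 difference -1.71, SE 0.55, adjusted p = 0.023, limma). Neither edgeR (adjusted p = 0.24) nor DESeq2 (adjusted p = 0.27) kept that call, which was also lost without any of the 3 libraries at 0 (adjusted p up to 0.069). In the GENCODE M21 annotation the last 774 exon bases of Ctsb (chr14:63122462-63145923, plus strand, GRCm38) are shared with Fdft1 on the opposite strand, at the 3′ end that this assay reads. Whether counting used strand is not given in the sources used here, so the level of Ctsb is uncertain.

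Overlaps farther from the 3′ end touch 2 other proteases. Ctsl (chr13:64359337-64370890, minus strand) shares 1742 exon bases with the antisense gene Gm47123 and 395 with the pseudogene Gm49230, none within 1715 bases of its 3′ end. Ctsd (chr7:142375911-142388038, minus strand) shares 808 with Gm49369 on its own strand, none within 690 bases of its 3′ end. Prss16 (chr13:22002173-22009742, minus strand), Ctss (chr3:95526786-95556403, plus strand) and Ctsh (chr9:90054152-90076089, plus strand) share no exon bases with another gene.

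Counted over the 6 proteases, 4 were called in the Psmb11-marked group, against 29.9% of all genes tested, 2 higher and 2 lower. In the Aire-marked group 5 were called, 2 higher and 3 lower (25.0% of all genes), and in the Pth-marked group 5, 3 higher and 2 lower (29.7%). The median log2 difference of all genes was -0.36 in the Pth-marked group and 0.15 in the Krt5-marked one, and in the Aire-marked group it moved from 0.08 to 0.24 with median of ratios scaling. None was called in the Krt5-marked group (12.6% of all genes) or in the Trpm5-marked group (26.0%) by limma. For the Krt5-marked group edgeR and DESeq2 also called 0, and 0 of the 6 had an unadjusted p below 0.05. In the Trpm5-marked group 3 of the 6 had one, and Ctsl was called lower by edgeR (log2 difference -2.12, adjusted p = 0.018). There DESeq2 called Ctsl, Ctss and Ctsd lower. Prss16 in the Trpm5-marked group (log2 difference -1.10, SE 0.53, adjusted p = 0.13, limma) was called lower without the library titled mTEC3, which held 469 CPM (-1.73, adjusted p = 0.026). Each difference is against the unweighted mean of the other 4 groups, so the 5 comparisons share libraries.

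**Figure D4:**
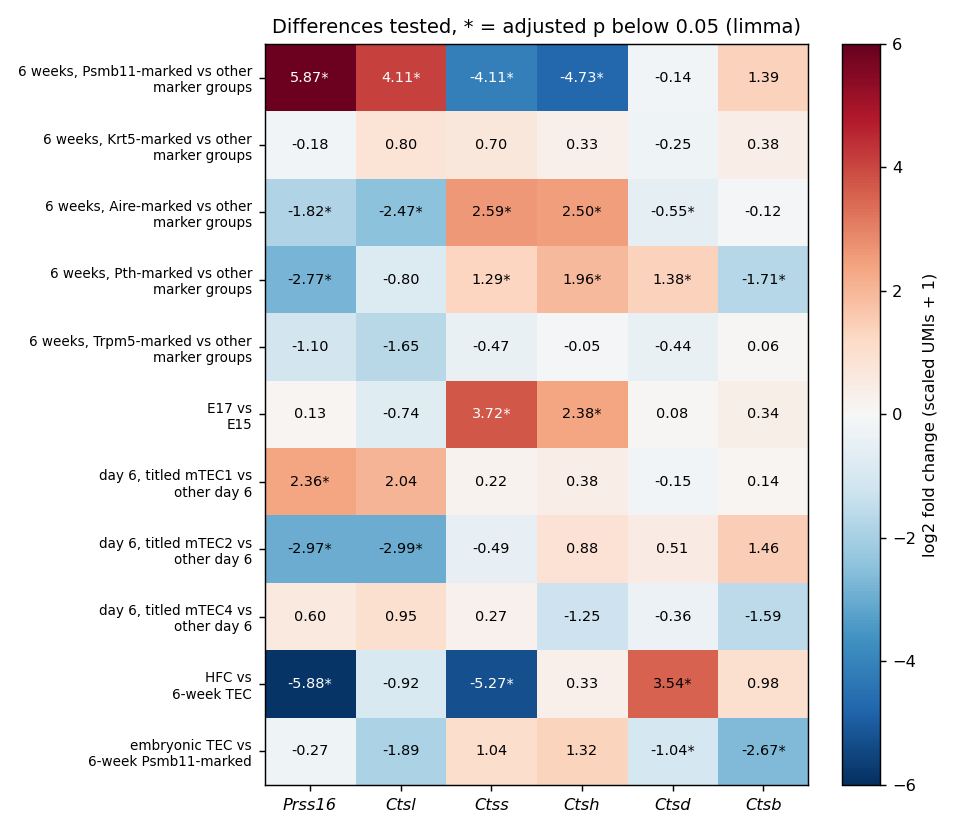
Log2 differences of the 6 proteases in 11 comparisons, on scaled UMIs + 1. Rows are comparisons, red is higher and blue lower in the group named first, and an asterisk marks an adjusted p below 0.05 by limma, as for Prss16 in the Psmb11-marked group (5.87).

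Counts of other genes of the pathway are to be read beside the shares of all genes called, given above (29.9%, 25.0%, 29.7% and 26.0% in the Psmb11-, Aire-, Pth- and Trpm5-marked groups). Of 12 other lysosomal proteases tested, 6 were lower and 0 higher in the Psmb11-marked group, with a median log2 difference of -1.07 against 0.01 over all genes. They included the carboxypeptidase Ctsz (log2 difference -2.21), the dipeptidyl peptidase Ctsc (-2.42) and the carboxypeptidase Prcp (-2.29). In the Aire-marked group 4 were higher and 1 lower, with Ctsz (2.46), the aspartic proteases Napsa (3.33) and Ctse (2.26) among those higher. Ctsz was at 754 to 898 CPM in the Aire-marked libraries, 314 to 357 in the Pth-marked ones, 200 to 212 in the Krt5-marked ones, 80.3 to 122 in the Trpm5-marked ones and 45.9 to 80.4 CPM in the Psmb11-marked ones. The Trpm5-marked and Psmb11-marked ranges met at 80.3 and 80.4 CPM, and the others were apart. The Trpm5-marked group had 3 higher and 4 lower, with Ctsc higher (2.51) and the asparaginyl endopeptidase Lgmn lower (-1.91), and the Pth-marked group had 2 higher and 1 lower, a share near that of all genes.

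Protease inhibitors moved as well. Cystatin B (Cstb), a cytosolic inhibitor of cathepsins L, S, B and H, was at 2374 to 4954 CPM in the Psmb11-marked libraries and at 491 to 1345 CPM in all other 6-week libraries, and was called higher by 2.18 log2 units (SE 0.17, adjusted p = 3.5e-10, limma). Of 11 inhibitors tested there, 2 were higher and 5 lower. The lower ones included Serpinb2 (-4.89) and Serpinb1a (-3.33), serpins of the inhibitor list. In the Pth-marked group 5 were higher and 0 lower, including the stefin Stfa3 (3.13), and in the Aire-marked group 4 were higher and 0 lower. The secreted cystatin Cst3 was lower in the Trpm5-marked group (-1.38), where 4 were lower and 1 higher.

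Genes of the lysosome itself were called in the Psmb11-marked group about as often as all genes. Of 19 genes of the lysosomal membrane and its proton pump, 5 were higher and 0 lower in the Psmb11-marked group, including the membrane protein Lamp2 (2.03), and 4 were higher and 6 lower in the Trpm5-marked group. Of 17 lysosomal hydrolases that are not proteases, 4 were higher and 2 lower in the Psmb11-marked group, the glucuronidase Gusb being among those lower (-2.16). All 10 MHC class II presentation genes were higher in the Aire-marked group and all 10 were lower in the Trpm5-marked one (limma). In the Psmb11-marked group 4 were higher and 1 lower, the one that was lower being the thiol reductase Ifi30 (-1.10). Of 11 genes of cortical antigen processing and T cell attraction other than Psmb11, 10 were higher in the Psmb11-marked group, among them the chemokines Ccl25 (4.10) and Cxcl12 (4.73).

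Before birth Ctss and Ctsh rose, and Prss16 was not called. From E15 to E17, Ctss went from 3.20 and 2.89 CPM to 62.8 and 60.6 CPM, and Ctsh from 4.81 and 7.5 CPM to 35.4 and 42.7 CPM. Neither pair of groups overlapped. Ctss was higher by 3.72 log2 units (SE 0.59, adjusted p = 0.021, limma) and Ctsh by 2.38 (SE 0.44, adjusted p = 0.040). Prss16 was at 3981 and 5700 CPM at E15 and at 5325 and 5079 CPM at E17, and Ctsl at 32.0 and 35.8 CPM and then at 20.3 and 18.9 CPM. Neither was called, with log2 differences of 0.13 (SE 0.56) for Prss16 and -0.74 (SE 0.57) for Ctsl. The share of Ctsl among the UMIs of Ctsl and Ctss was 90.9% and 92.5% at E15 and 24.5% and 23.8% at E17.

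The embryonic calls were 2 of 6, against 0.767% of all genes, and rest on 2 libraries a group. Both were lost when any of the 4 embryonic libraries or either day 6 library titled mTEC1 was left out. Over the 10 libraries left out in turn, the log2 difference ran from 3.68 to 3.77 for Ctss and from 2.13 to 2.63 for Ctsh. The embryonic and day 6 libraries share 1 estimate of the spread, and why the calls were lost was not tested. With a pseudocount of 5, limma called neither (adjusted p = 0.060 for Ctss and 0.11 for Ctsh). Aire rose alongside, from 45.7 and 35.2 CPM at E15 to 362 and 383 CPM at E17. Of 11 tested genes of the Aire-stage list, which includes Ctss, 8 were higher at E17. The myeloid genes summed to 24.0 and 26.0 CPM at E15 and to 90.3 and 123 CPM at E17, and 1 of 13 tested was called higher. Their part was not tested.

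At day 6 Prss16 and Ctsl differed between the titled populations. Prss16 was at 5857 and 7398 CPM in the libraries titled mTEC1, at 3536 and 2403 CPM in those titled mTEC4, and at 1243 and 251 CPM in those titled mTEC2. Ctsl stood at 43.9 and 50.9 CPM, at 44.1 and 17.4 CPM, and at 3.08 and 2.99 CPM, the last being 1 UMI in each library. Psmb11, the cortical marker, was at 193 and 226 CPM, at 153 and 97.5 CPM, and at 21.5 and 23.9 CPM in the same order. The libraries titled mTEC1 at this age were within the range of the 6-week Psmb11-marked libraries in Psmb11 and Prss16 and below it in Ctsl, and they also held Aire at 434 and 556 CPM.

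In the titled mTEC2 libraries both genes fell against the other day 6 libraries, Prss16 by 2.97 log2 units (SE 0.49, adjusted p = 0.0057, limma) and Ctsl by 2.99 (SE 0.49, adjusted p = 0.0058). These were 2 of 6 proteases against 7.89% of all genes, and both calls remained when each of the 10 embryonic and day 6 libraries was left out in turn (adjusted p up to 0.035 and 0.030). The tuft cell genes moved with that title, 12 of them summing to 3990 to 6179 CPM there against 75.2 to 203 CPM in the other day 6 libraries, with Trpm5 at 505 and 451 CPM against at most 29.8 CPM. The difference of Prss16 moved to -4.12 or -1.82 without one or the other titled mTEC2 library. In the titled mTEC1 libraries Prss16 was higher by 2.36 log2 units (SE 0.49, adjusted p = 0.030, limma), 1 of 6 against 3.04% of all genes. That call was lost without any of 8 of the 10 libraries (adjusted p up to 0.33). Ctsl missed the threshold there (log2 difference 2.04, SE 0.49, adjusted p = 0.054, limma) and passed it with edgeR (adjusted p = 0.028). For the titled mTEC4 libraries limma, edgeR and DESeq2 each called 0 of 6, against 2.79% of all genes by limma, and 2 of 6 had an unadjusted p below 0.05.

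Ctss at day 6 was at 161 and 111 CPM in the libraries titled mTEC4, at 166 and 103 CPM in those titled mTEC1, and at 194 and 44.8 CPM in those titled mTEC2. Ctsh was at 77.8 and 38.3, at 139 and 99.96, and at 138 and 161 CPM. Neither was called in any day 6 comparison by limma with all libraries. Without the first library titled mTEC2, Ctss was called lower in that title (log2 difference -1.53, adjusted p = 0.021) and Ctsh lower in the mTEC4 title (adjusted p = 0.047). Other cells' markers were high at this age: the 14 myeloid genes summed to 1038 to 2096 CPM and 12 thymocyte genes to 658 to 1055 CPM over the 6 libraries. The 8 endothelial genes summed to 139 to 144 CPM in the libraries titled mTEC1, 1271 to 1726 CPM in those titled mTEC4 and 862 to 3046 CPM in those titled mTEC2, and 10 mesenchyme genes to 875 to 1029, 2074 to 3691 and 1065 to 1551 CPM. The part of these cells in the day 6 levels was not tested. Cstb moved with Prss16, being higher in the titled mTEC1 libraries (log2 difference 1.88, adjusted p = 0.0083, limma) and lower in the titled mTEC2 ones (-2.03, adjusted p = 0.0020).

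Embryonic TEC, a whole population, were also set against the Psmb11-marked libraries, the cortical group at 6 weeks. Ctsd was at 144 to 176 CPM in the 4 embryonic libraries and at 271 to 395 CPM in the Psmb11-marked ones, without overlap, and was lower by 1.04 log2 units in the embryo (SE 0.22, adjusted p = 0.0011, limma). All 4 embryonic libraries were below every later TEC library in Ctsd. Ctsb was at 0 to 1.99 CPM, which is 0 to 2 UMIs, against 8.24 to 30.8 CPM, and was also lower (log2 difference -2.67, SE 0.66, adjusted p = 0.0049). Those were 2 of 6 proteases against 16.2% of all genes. Prss16 did not pass (log2 difference -0.27, SE 0.64, adjusted p = 0.87, limma). Ctsl missed the threshold by limma (-1.89, SE 0.77, adjusted p = 0.10) and passed it with a pseudocount of 5 (adjusted p = 0.0045), edgeR (adjusted p = 0.00075) and DESeq2 (adjusted p = 5.6e-08). Ctss (log2 difference 1.04, SE 0.48, adjusted p = 0.15, limma) and Ctsh (1.32, SE 0.50, adjusted p = 0.076) missed the threshold as well. Other lysosomal genes were lower too. Of 19 membrane and proton pump genes 7 were lower and 0 higher, such as Lamp1 (-1.19), and of 17 hydrolases 5 were lower and 0 higher, such as the saposin precursor Psap (-2.54).

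In HFC Ctsd stood above every TEC library, and Prss16 and Ctss were near 0. Ctsd was at 4285, 4183 and 3933 CPM, a mean of 4134 ± 181 CPM (SD, n = 3), whereas the 20 TEC libraries at 6 weeks ran from 183 to 831 CPM with a median of 304 CPM. The difference was 3.54 log2 units (SE 0.19, adjusted p = 4.0e-15, limma) against the mean of the 5 marker groups. Prss16 was at 5.76, 0 and 2.94 CPM, which is 3, 0 and 2 UMIs, below all 30 TEC libraries, and differed by -5.88 log2 units (SE 0.59, adjusted p = 3.7e-09). Ctss had 1 UMI in the 3 HFC libraries together and differed by -5.27 log2 units (SE 0.43, adjusted p = 6.3e-11). Ctsl at 3.12 to 4.42 CPM, Ctsb at 5.89 to 25.0 CPM and Ctsh at 99.8 to 164 CPM lay within the range of the 6-week TEC and were not called by limma, though edgeR called Ctsb (adjusted p = 0.011) and Ctsh (adjusted p = 0.017) higher and DESeq2 called Ctsb higher (adjusted p = 0.018). The 14 myeloid genes summed to 9.60 to 26.5 CPM in HFC, and 11 of them were lower than in the 6-week TEC. Of all genes, 43.7% were called in that comparison.

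**Figure D5:**
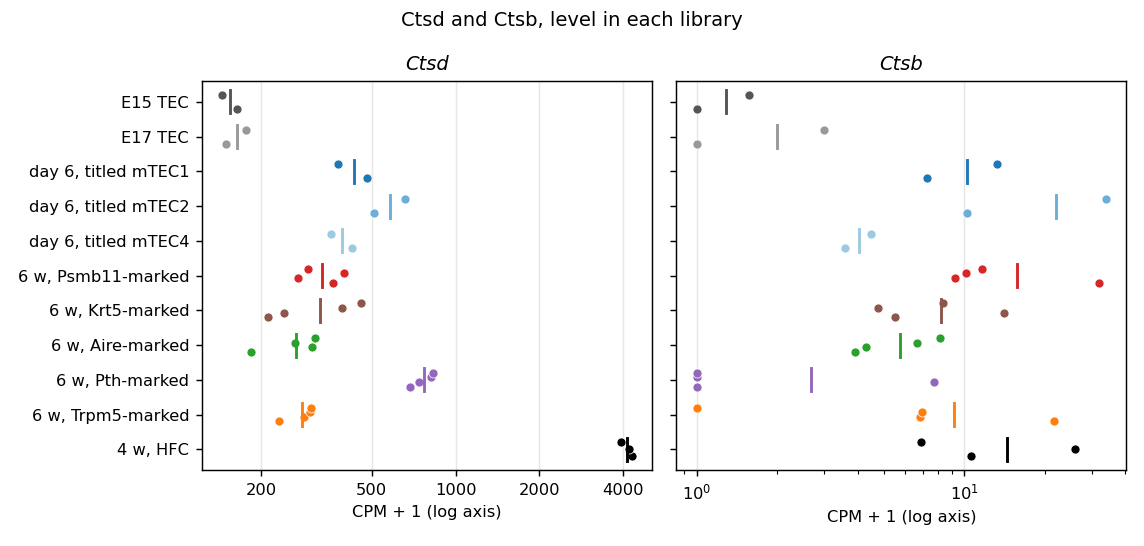
Ctsd (left) and Ctsb (right) in each library, as CPM + 1 on log axes that differ between the panels, by group. Points are libraries and vertical lines are group means, and the 3 HFC libraries sit at 3933 to 4285 CPM of Ctsd while Ctsb nowhere exceeds 32.9 CPM.

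Calls in HFC were 3 of 6, against 43.7% of all genes, and the median log2 difference of all genes was -0.78, or -0.43 with median of ratios scaling. Over all genes 1029 were higher and 4974 lower in HFC, and 1899 and 3718 with that scaling. Relative to either, Ctsd was higher and Prss16 and Ctss lower. The 3 calls remained when each library was left out in turn. HFC differed from TEC in tissue, age, transgene and dissociation, which cannot be told apart. Of 10 MHC class II presentation genes 9 were lower in HFC, such as Cd74 (log2 difference -8.54), and Cstb was higher (2.79). Of 12 other lysosomal proteases Ctsf, a cysteine protease, was the one that was higher (2.33) and 5 were lower. Of 17 hydrolases 12 were lower and 0 higher. The HFC libraries held 84840 to 109900 CPM over 11 hair and keratinocyte genes, against at most 9734 CPM in any TEC library, and Foxn1 at 11.5 to 36.8 CPM.

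Across the 33 libraries the genes whose levels followed each protease most closely were sought by Pearson's r of log2 values among 7661 genes. These are descriptions over libraries that share groups, depth and ages. For Prss16 they were the endocytic receptor Ly75 (r = 0.94), the transcription factor Pax1 (0.94), Cd83 (0.93), Psmb11 (0.93) and Ndrg3 (0.92). For Ctss they were the interferon-induced Epsti1 (0.94), the proteoglycan Srgn (0.94), Lyz2 (0.92), the oxidase subunit Cyba (0.92) and the ubiquitin-like Ubd (0.91). Lyz2 is also on the myeloid list, and the source of the Ctss transcripts was not tested. Ctsl followed Klf15 (0.80), the proteasome subunits Psma5 (0.79) and Psma7 (0.78), Aldh1l1 (0.78) and Neurl2 (0.78). Ctsh followed Skint4 (0.91), the skin protease Asprv1 (0.88), Nfatc2 (0.87) and Clic3 (0.86).

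Ctsd followed the hairless gene Hr (0.92), Tuba4a (0.90), Tnfrsf12a (0.89), Qsox1 (0.89) and Adgrg1 (0.88), and the HFC libraries held the highest Ctsd. Ctsb, with its few UMIs, reached at most 0.66 (Gtf2ird1), followed by Rab5b (0.61), Pitpnm2 (0.60), Atp6v1h (0.60) and Mphosph10 (0.59). Between the proteases r was 0.67 for Prss16 with Ctsl and 0.66 for Ctss with Ctsh, over the same 33 libraries. It was -0.69 for Ctsl with Ctsh, -0.65 for Prss16 with Ctsd and -0.63 for Prss16 with Ctsh. For Ctss it was -0.40 with Ctsd, -0.34 with Ctsl and 0.008 with Prss16, so Ctss and Prss16 were not correlated over all libraries.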

How the data were processed

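Per the labels' protocols, RNA of the sorted cells was captured with Dynabeads, and MARS-seq libraries followed. Tools named in the submitters' processing notes are STAR 2.4.2a, HTSeq, cutadapt, bcl2fastq and DESeq2, with mm10 as the build. What each did, and with which settings, is not given in the sources used here. For each gene the table deposited gives a normalized signal per library, each library summing to 100, so a value is the percent of the library's UMIs. Whole UMIs came back from it in 33 of 33 libraries within 0.01. Every value column belongs to a sample of the series. The plan had assumed normalized UMIs, so the percentages were scaled to the median library total of 570253 UMIs first. Printed levels are UMIs per 1000000 (CPM), set within a gene and not between genes, since 3′ counts of different genes were not compared by length. A gene at 0 can still hold up to 3 UMIs, and floors and intervals cover counting error only.

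The 6 proteases, the 22 gene lists (254 genes, 227 in the table) and the marker thresholds were chosen with earlier results of these data known. A gene entered a fit with 5 or more scaled UMIs in at least 2 of its libraries, and limma 3.58.1 (R 4.3.3) was run on log2(value + 1), with a mean-variance trend, two-sided, with Benjamini-Hochberg adjustment over all genes tested and a threshold of 0.05. Such fold changes understate changes of genes with few UMIs. The 6-week libraries were fitted together, also with HFC or with the embryonic libraries for those comparisons, and so were the embryonic and day 6 libraries. Named genes are the 6 proteases in every comparison, up to 3 called members of a list with the smallest adjusted p, and the 5 genes with the highest Pearson's r to each protease among genes with a mean of at least 10 scaled UMIs. Predicted genes were left out of the last, and some genes the rule names are not reported here. Single myeloid genes, Foxn1, and the levels of Ctsz and Cstb by group were chosen after their values were seen. Alternatives changed the pseudocount (0.5 or 5), the filter (none, or a mean of 10), the scaling (median of ratios) and the moderation (robust). Others ran edgeR 4.0.16 or DESeq2 1.42.0 with the recovered UMIs, added a replicate block, or left out each library. Each fit was tested on simulated data. Python 3.11.15 was used with pandas 2.3.3, numpy 2.4.6, matplotlib 3.10.9 and scipy 1.17.1.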

Additional observations from a re-analysis of the deposited data

Results flagged for a closer look

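Each of the 6 proteases was looked at in each of the 5 marker groups of 4 libraries, which makes 30 sets. In 5 of the 30 sets, 1 library stood apart from the other 3 by more than Dixon's test allows. Chance flags about 1 in 20 sets of independent, normally distributed values, whereas these sets share the same 20 libraries and some hold few UMIs. Prss16 was at 405 CPM in the Pth-marked library titled mTEC4 with number 191, where the next was at 35.7 CPM, and at 469 CPM in the Trpm5-marked library titled mTEC3 with number 195, where the next was at 117 CPM. Ctsl was at 4.77 CPM in the Aire-marked library titled mTEC2 with number 191, next to 0.73 CPM. Ctsb was at 6.74 CPM, which is 1 UMI, in the Pth-marked library titled mTEC4 with number 191, where the other 3 were at 0. Ctsb was also at 30.8 CPM in the Psmb11-marked library titled mTEC1 with number 196, next to 10.7 CPM. The cause of these values was not tested.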

How the results depend on the processing

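Ctsb, and Ctsl outside the Psmb11-marked group, rest on few UMIs, and the Pth-marked libraries are the shallowest, so differences there are limited by depth. No called difference of a protease changed direction under any alternative run. With all libraries, 4 of 6 proteases were called in the Psmb11-marked group, 5 in the Aire-marked and Pth-marked groups, 0 in the Krt5-marked and Trpm5-marked groups, 2 for E17 against E15, 1 for the day 6 mTEC1 title, 2 for the day 6 mTEC2 title, 3 for HFC and 2 for embryonic TEC against the Psmb11-marked group. A pseudocount of 5 gave 1 in the Trpm5-marked group and 0 for E17 against E15, and no filter gave 1 for the latter. A filter at a mean of 10 gave 2 for the day 6 mTEC1 title and 1 for embryonic TEC, where Ctsb was no longer tested. Median of ratios scaling gave 1 in the Trpm5-marked group. By edgeR there were 1 in the Trpm5-marked group, 2 for the day 6 mTEC1 title and 5 for HFC. By DESeq2 there were 3 in the Pth-marked group, 3 in the Trpm5-marked group and 2 for the day 6 mTEC1 title. The cause was not tested in the other cases. Counts over all genes moved by over 1.5 times in some settings. The filter at a mean of 10, which tests fewer genes, gave 2665 called genes in place of 4064 for the Psmb11-marked group, 1983 in place of 3408 for the Aire-marked, 2464 in place of 4041 for the Pth-marked and 190 in place of 320 for the day 6 mTEC4 title. By edgeR and DESeq2 the Pth-marked group had 1922 and 2210 (1282 higher and 640 lower by edgeR, 1193 and 2848 by limma), E17 against E15 172 and 367 in place of 88, the day 6 mTEC4 title 150 and 523, and embryonic TEC 3709 and 4186 in place of 2225. DESeq2 gave 3101 in place of 1714 for the Krt5-marked group and 734 in place of 349 for the day 6 mTEC1 title.

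With the number in the titles as a replicate block, 3 were called in the Aire-marked group and 1 for E17 against E15. In that fit Ctsl (log2 difference 5.04, adjusted p = 0.082, limma) and Ctss (-3.26, adjusted p = 0.072) were not called in the Psmb11-marked group, all of whose libraries share 1 number, while Ctsb was (4.40, adjusted p = 0.038). Over all genes the block left 764, 9, 2135, 1989 and 2231 calls in the Psmb11-, Krt5-, Aire-, Pth- and Trpm5-marked groups, the last in place of 3537, and 204 for the day 6 mTEC4 title. No pairing by number was established. At 6 weeks same-numbered libraries correlated from -0.30 to 0.72, with medians of 0.32, 0.22, 0.12 and 0.59 for the 4 numbers, in deviations from titled group means. Since the titles go against the markers, this check cannot settle it, and the numbers themselves may not belong to the libraries. Correlations were near 0 at day 6 and in the embryo. No paired analysis was possible for HFC or for embryonic TEC against the Psmb11-marked group because those groups share fewer than 2 numbers.

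Leaving out each library in turn gave 4 to 5 called proteases in the Psmb11-marked group, 0 to 0 in the Krt5-marked group, 3 to 5 in the Aire-marked group, 3 to 5 in the Pth-marked group and 0 to 1 in the Trpm5-marked group. It gave 0 to 2 for E17 against E15, 0 to 2 for the day 6 mTEC1 title, 2 to 3 for mTEC2, 0 to 2 for mTEC4, 3 to 3 for HFC, 2 to 4 for embryonic TEC and 0 to 0 for the titled cTEC. Where this left a group with 1 library, that library was assumed to vary like the others.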
